A study of Mus musculus with 18 samples.

Results

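Gene expression in aorta-gonad-mesonephros (AGM) explants cultured with cyclopamine was compared with the same sorted populations taken straight from the embryo. The comparison covered 12 of the 18 RNA-sequencing libraries of the series: all 6 libraries from cyclopamine explants and all 6 libraries from fresh AGM. Every library came from AGM tissue of C57BL6 mouse embryos at embryonic day 11 that carry a BRE-GFP transgene, in which a BMP response element drives green fluorescent protein. Sorting used 3 gates, and each was split into a BRE-GFP negative and a BRE-GFP positive fraction. The EC gate (CD31+ c-Kit-) is enriched in endothelial cells, the HPSC gate (CD31+ c-Kit+) in hematopoietic progenitor and stem cells, and the MC gate (CD31- c-Kit-) in mesenchymal cells. Fresh samples were sorted directly after dissection. Cyclopamine samples were sorted after explant culture of the AGM with that drug. The remaining 6 libraries came from explants cultured without cyclopamine, and they entered the model as a group of their own. The labels give neither the dose of the drug nor the culture times, so other differences between the explant cultures are not known.

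Hedgehog ligands relieve the repression of Smoothened by the receptor Patched1, and Smoothened then allows GLI factors to switch on targets that include Gli1, Ptch1 and Hhip. Cyclopamine, a plant alkaloid, binds Smoothened and blocks this step. BMP ligands act through receptor kinases and SMAD factors on targets such as the Id genes and Smad6. Both pathways are active around the dorsal aorta of the AGM, where the first hematopoietic stem cells emerge from endothelium, and explant culture is used to follow that process outside the embryo. The series asks how BMP and Hedgehog signalling regulate these stem cells. Because cyclopamine samples were also cultured, the drug and the culture cannot be told apart in the contrast with fresh tissue. Values from explants without the drug are therefore given for some of the genes, and the other differences stand without them.

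Each combination of gate, fraction and culture is represented by 1 library. The 6 pairs of gate and fraction served as blocks, so that a difference is measured within blocks and its error comes from how far the blocks disagree. The labels do not say that the libraries came from separate embryos, and p-values therefore measure only the spread between these libraries, drug-free explants included. That spread mixes technical noise with differences between gates and fractions in how they changed. If the 6 libraries of a culture came from 1 pool of tissue, the blocks are not replicates of that culture. Total counts ranged from 4547062 to 16142766 in the fresh libraries and from 3041249 to 21972063 in the cyclopamine libraries, the lowest being the HPSC negative and the highest the MC positive cyclopamine library. Reads outside annotated genes made up 21.74% to 41.96% of the total in fresh libraries and 19.51% to 33.01% in cyclopamine libraries. This share was lower with cyclopamine in 5 of 6 blocks, by 7.72 percentage points on average (fresh and cyclopamine means of 34.7% and 27.0%, two-sided exact sign-flip permutation test p = 0.0625, where the smallest possible p is 0.03125). In drug-free explants it ran from 35% to 49.41%, above every cyclopamine library. The median number of genes with reads was 14808.5 in fresh, 18243 in drug-free explant and 13814.5 in cyclopamine libraries. The HPSC negative and EC negative cyclopamine libraries had the fewest, 10297 and 11006, and several of the 0 CPM values below come from them.

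The sorted gates were checked against defining markers, in CPM, the read count relative to the library's total as scaled by edgeR's TMM factors. Kit ranged from 450 to 884 CPM in the fresh and cyclopamine HPSC libraries and from 42.5 to 220 CPM in the EC libraries. The sum of 9 endothelial markers was 498 CPM in the fresh EC negative library and 8138 CPM in the fresh EC positive library, against 1232 and 1584 CPM in the EC cyclopamine libraries. In the fresh EC negative library, 5 macrophage markers summed to 3938 CPM, more than its endothelial markers. The 6 markers of the HPSC gate summed to 1254 and 871 CPM in fresh and 947 and 1500 CPM in cyclopamine HPSC libraries (negative, then positive), where the macrophage markers had 1307 and 358 CPM and then 1206 and 2546 CPM. The 4 granulocyte markers summed to 4298 and 816 CPM in fresh and 5955 and 1621 CPM in cyclopamine HPSC libraries. In that gate the 9 endothelial markers summed to 385 and 6088 CPM fresh and to 1617 and 3419 CPM with cyclopamine. These endothelial sums exceeded those of the gate's own 6 markers in all but the fresh negative library. The 6 mesenchymal markers summed to 733 and 1183 CPM in the fresh EC libraries and to 3568 and 5639 CPM in the EC cyclopamine libraries, where the MC cyclopamine libraries had 4092 and 5757 CPM. After culture the EC gate therefore carried mesenchymal transcripts near the level of the MC gate, and EC results below have those sums beside them. In bulk samples, fewer cells of a type and less RNA per cell cannot be told apart.

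Across all 6 blocks, 21 of 16231 genes tested rose in cyclopamine explants and none fell (0.129% called, 0.129% higher and 0% lower, edgeR quasi-likelihood test, adjusted p under 0.05). By the lists used here, 3 of the 21 were immediate early genes (Btg2, Fos, Egr1), 3 were lysosomal and lipid-handling genes (Pla2g7, Gpnmb, Lgals3), and Spp1, Cxcr4, Tpsb2, Ctsg and Tfrc came from other lists. The others described below are Enpp2, Agtr2, Mgp, Mia1, Aspn, Nfia, Olfml3, Ptrf, Tnfsf13b and Adamdec1. At an unadjusted p under 0.05, 620 genes were higher and 551 were lower, 7.21% of those tested (3.82% and 3.39%), and the median difference over all genes was -0.12 on the log2 scale. DESeq2 called 230 genes higher (1.42%) and 155 lower (0.955%), and limma-voom 37 higher (0.228%) and 15 lower (0.0924%). Cyclopamine libraries all lay above the fresh ones for 36 genes (0.222%) and all below for 32 (0.197%), while 282 genes (1.74%) were higher and 340 (2.09%) lower in all 6 blocks. The count of 0 on the lower side therefore holds for edgeR and not for the other tools.

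**Figure D1:**
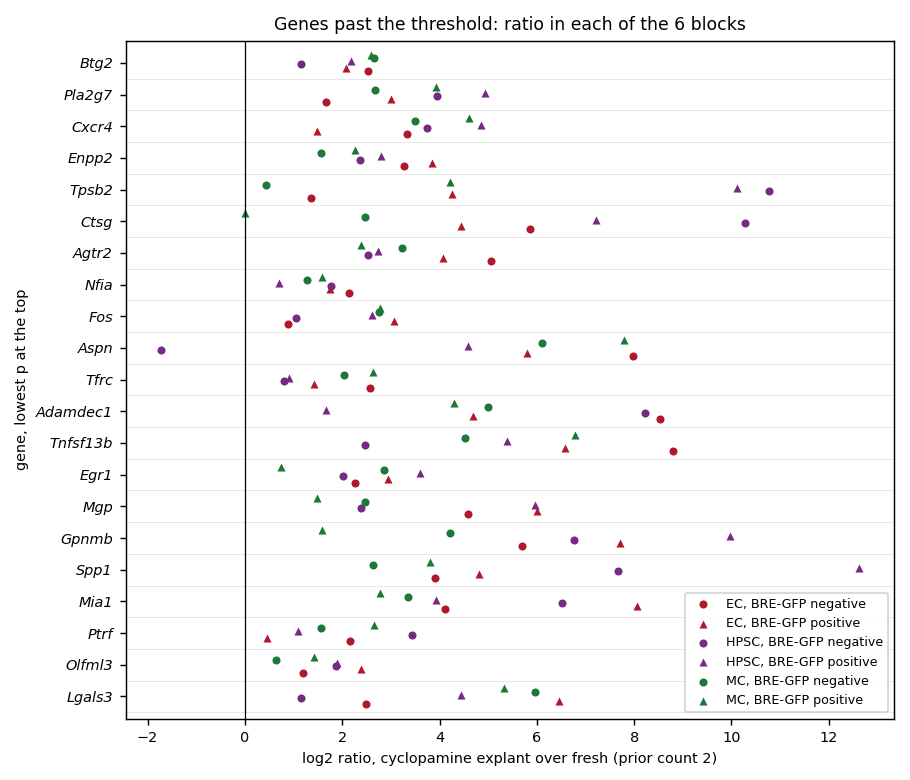
Log2 ratio of cyclopamine explant to fresh CPM (x axis, prior count of 2) for each of the 21 called genes (y axis, lowest adjusted p at the top), with 1 point for each of the 6 blocks of gate and BRE-GFP fraction. Btg2 points sit close together between 1.15 and 2.66, while genes such as Tpsb2 and Aspn spread widely between blocks.

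The number of calls depended on single libraries. Without the fresh EC negative library 9 genes were called higher, without the fresh EC positive library 9, without the EC cyclopamine negative or positive library 11 each, without the fresh HPSC positive library 12, and without the fresh MC negative or positive library 13 and 11. A fit to the 12 libraries alone called 2 of the 21, Btg2 and Agtr2, and a fit with the share of reads outside genes as a covariate called 0 (lowest adjusted p = 0.181). Btg2, Pla2g7, Cxcr4, Enpp2, Tpsb2, Ctsg and Agtr2 passed in all 18 fits that leave out 1 library. Nfia passed in 17 of these fits, Adamdec1, Aspn and Tfrc in 14, Fos in 13, Tnfsf13b in 11, Spp1 in 10, Gpnmb and Egr1 in 9, Ptrf in 8, Mgp in 7, Mia1 in 4, Olfml3 in 3 and Lgals3 in 2.

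The lowest adjusted p belonged to Btg2, an antiproliferative gene that is induced within minutes by many stimuli and by p53. Fresh libraries had 90.8, 166 and 246 CPM of Btg2 (lowest, median and highest of 6) and cyclopamine libraries 253, 862 and 1223 CPM. The lowest cyclopamine library, HPSC negative, lay above the highest fresh library, so the groups did not overlap. Btg2 rose by 2.21 ± 0.23 (log2 fold change ± SE, 6 blocks, edgeR adjusted p = 0.000464). Fos, a subunit of the AP-1 transcription factor, had 94.5, 168 and 345 CPM in fresh libraries and 551, 694 and 1334 CPM in cyclopamine libraries. All cyclopamine libraries were again above all fresh ones, and Fos rose by 2.16 ± 0.34 (edgeR adjusted p = 0.0141). Egr1, a zinc-finger factor of the same rapid response, had 12.2, 59.8 and 248 CPM in fresh and 149, 315 and 417 CPM in cyclopamine libraries. The fresh MC positive library, at 248 CPM, overlapped the cyclopamine range, and Egr1 rose by 2.29 ± 0.40 (edgeR adjusted p = 0.0280).

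Of 18 tested immediate early genes, these 3 rose, 3 more were higher at an unadjusted p under 0.05, and none was lower at that level (median of the list 0.82, against -0.12 over all genes). Egr2 differed by 4.03 ± 0.96 (adjusted p = 0.196) and Nr4a1 by 1.505 (adjusted p = 0.516), neither passing the test. The summed CPM of the list ran from 494 to 1733 in fresh libraries and from 1770 to 4497 in cyclopamine libraries. By gate, the list's median was 0.84 in EC, -0.17 in HPSC and 1.60 in MC. Of 12 tested heat shock genes, another rapidly induced set, none passed, 3 were lower at an unadjusted p under 0.05 and none was higher at that level. Hsph1, a co-chaperone of HSP70, had 134, 170 and 210 CPM in fresh libraries and 2.73, 68.0 and 90.3 CPM in cyclopamine libraries. Its groups did not overlap (difference -1.95 ± 0.63, adjusted p = 0.479).

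Promoter windows of RefSeq (assembly GRCm38.p6) hold the 250 bases before a RefSeq start site, of which a gene can have several, and were available for 14 of the 21 called genes. The Lgals3 window lies before a start site inside the gene as GENCODE outlines it. The palindrome GGCGCC, a GC-rich sequence found in BMP response elements and read the same on both strands, occurred before 4 of these 14 genes, 28.6%, against 17.7% of the 11291 tested genes with a window. It also occurred before 17.4% of genes higher at an unadjusted p under 0.05. The 4 windows are shown around their matches, which are in capitals, because they belong to a pair of rapid-response genes and to 2 further genes that rose. The stretches are chr1:134079156-134079213 on the minus strand for Btg2, chr12:85473833-85473889 on the plus strand for Fos, chr14:47373796-47373859 on the plus strand for Lgals3 and chr16:32608777-32608842 on the plus strand for Tfrc.
Btg2: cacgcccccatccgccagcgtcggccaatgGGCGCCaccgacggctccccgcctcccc
Fos: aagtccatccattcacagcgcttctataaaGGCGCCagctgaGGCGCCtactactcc
Lgals3: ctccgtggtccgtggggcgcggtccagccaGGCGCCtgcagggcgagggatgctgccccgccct
Tfrc: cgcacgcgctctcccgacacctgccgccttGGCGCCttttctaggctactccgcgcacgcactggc

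Fos holds the letters at a pair of places, the other windows at 1 each. The AP-1 sequence TGANTCA, searched on both strands, occurred before 1 of the 14 genes, Tnfsf13b, or 7.14%, against 6.2% of all tested genes with a window. It occurred before 11% of the genes higher at an unadjusted p under 0.05. The GLI sequence GACCACCCA, searched on both strands, occurred in 0 of 14 windows and in 0.257% of all windows. A match is only a run of letters in this window, and a missing match says nothing of the factor.

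Pla2g7, the secreted phospholipase that cleaves platelet-activating factor and a product of macrophages, had 4.59, 20.04 and 66.9 CPM in fresh libraries and 72.6, 187 and 620 CPM in cyclopamine libraries. All 6 cyclopamine libraries were above all fresh ones, with HPSC positive the highest, and Pla2g7 rose by 3.37 ± 0.40 (edgeR adjusted p = 0.00138). The gene lies at chr17:43568098-43612201 on the plus strand (GRCm38) and shares exonic sequence with an antisense gene, 1700071M16Rik. Whether counting used strand is not given in the sources used here, so reads of the pair cannot be told apart. Gpnmb, a transmembrane glycoprotein of lysosome-loaded macrophages and pigment cells, ran from 1.70 to 26.6 CPM in fresh libraries (median 3.20) and from 48.4 to 2556 CPM with cyclopamine (median 302). The groups did not overlap and the cyclopamine range was wide, from MC negative at the bottom to HPSC positive at the top. Gpnmb rose by 5.73 ± 1.01 (edgeR adjusted p = 0.0280).

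Spp1, which encodes the secreted adhesion protein osteopontin, had 0.239, 7.72 and 59.8 CPM in fresh libraries and 52.1, 716 and 2573 CPM in cyclopamine libraries. The fresh EC negative library overlapped the lowest cyclopamine library, and Spp1 was higher in each of the 6 blocks. It rose by 5.21 ± 0.92 (edgeR adjusted p = 0.0280). Lgals3, the carbohydrate-binding protein galectin-3 of macrophages, had 0, 5.95 and 16.2 CPM in fresh and 10.3, 58.9 and 238 CPM in cyclopamine libraries. The cyclopamine MC libraries, at 10.3 and 14.5 CPM, were within the fresh range of the EC and HPSC gates, and Lgals3 rose by 4.27 ± 0.81 (edgeR adjusted p = 0.0492).

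Of 24 tested lysosomal and lipid-handling genes, 3 rose (Pla2g7, Gpnmb, Lgals3), 11 in all were higher at an unadjusted p under 0.05, and none was lower at that level (median 0.77). In all 6 blocks 8 members were higher, where 1.74% of all genes were, and by gate the median was -0.04 in EC, 1.59 in HPSC and 0.79 in MC. Cd63, a tetraspanin of late endosomes, had 80.7, 166 and 242 CPM in fresh and 310, 354 and 461 CPM in cyclopamine libraries, with no overlap (difference 1.21 ± 0.30, adjusted p = 0.229). Ctsk, a collagen-degrading lysosomal protease, differed by 3.86 ± 0.99 (adjusted p = 0.260). Among 22 tested genes of matrix remodelling, Spp1 rose and 8 in all were higher at an unadjusted p under 0.05.

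In the general macrophage list, of 21 tested genes none passed, 1 was higher and 2 were lower at an unadjusted p under 0.05 (median 0.02). The summed CPM of this list ran from 239 to 13890 in fresh libraries and from 130 to 10470 in cyclopamine libraries. The 5 defining macrophage markers summed to 3938 and 695 CPM in fresh and 676 and 473 CPM in cyclopamine EC libraries, and to 1307 and 358 CPM in fresh and 1206 and 2546 CPM in cyclopamine HPSC libraries (negative, then positive). Mrc1, the mannose receptor of tissue-resident macrophages, was lower in all 6 blocks, with 13.6, 161 and 1134 CPM in fresh and 4.78, 13.2 and 136 CPM in cyclopamine libraries (difference -2.61 ± 0.63, adjusted p = 0.210). Lyz2, the lysozyme of macrophages and granulocytes, differed by 1.83 ± 0.67 (adjusted p = 0.543). The part of macrophage number in the rise of Pla2g7, Gpnmb, Spp1 and Lgals3 was not tested.

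Cxcr4, the receptor for the chemokine CXCL12 that guides progenitors and stem cells, had 0.1996, 8.73 and 15.5 CPM in fresh libraries and 8.77, 73.4 and 215 CPM in cyclopamine libraries. It was higher in each block, from 0.924 and 0.1996 CPM to 12.1 and 8.77 CPM in the MC gate and from 11.2 and 7.30 CPM to 153 and 215 CPM in the HPSC gate (negative, then positive). Cxcr4 rose by 3.68 ± 0.47 (edgeR adjusted p = 0.00206). Of 22 tested progenitor surface genes it alone passed, and 3 were higher at an unadjusted p under 0.05 (median 0.15). Cxcl12, the ligand of the receptor, had 59.5, 104 and 634 CPM in fresh and 2.26, 85.3 and 226 CPM in cyclopamine libraries (difference -1.19 ± 0.56, adjusted p = 0.688). Kit differed by 0.14 ± 0.40 (adjusted p = 0.976).

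Tpsb2, a tryptase of mast cell granules, had 0 counts in all 6 fresh libraries and 2910 counts in cyclopamine libraries, at least 853-fold higher against a floor of 3 counts over the group (edgeR adjusted p = 0.00208). Of the cyclopamine libraries, HPSC negative had 293 CPM and HPSC positive 184 CPM, and the other 4 had 0.0583 to 3.01 CPM. A near-identical gene, Tpsab1, ran from 0 to 2.01 CPM in fresh and from 0 to 14.2 CPM in cyclopamine libraries, and the split of reads between the pair is uncertain. Ctsg, the neutrophil and mast cell protease cathepsin G, also had 0 counts in all fresh libraries and 951 counts with cyclopamine, at least 279-fold higher by the same floor (edgeR adjusted p = 0.00458). Its reads came mostly from the HPSC gate, at 207 and 24.5 CPM, with 0 CPM in the MC positive library. Beside these genes, 3 defining mast cell markers summed to 226 and 75.7 CPM in the fresh HPSC libraries and to 764 and 341 CPM in the cyclopamine HPSC libraries (negative, then positive). The granulocyte marker sums of this gate are those given with the gate check. The part of these cells in the rise of Tpsb2 and Ctsg was not tested.

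No other mast cell gene passed (1 of 12 tested, median 0.40), nor any other granulocyte gene (1 of 20 tested, median 0.32), and both medians stand with Tpsb2 and Ctsg at their bounds. In the granulocyte list 3 members were higher and 3 were lower at an unadjusted p under 0.05. Among the lower ones were the eosinophil granule genes Epx, at -3.54 (adjusted p = 0.506), and Prg2, at -2.94 (adjusted p = 0.543), each lower in all 6 blocks.

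Tnfsf13b, the B-cell survival factor BAFF, was read in 1 fresh library only, MC negative at 0.493 CPM, and ran from 0.754 to 73.8 CPM in cyclopamine libraries (median 15.4). The groups did not overlap, and Tnfsf13b rose by 8.47 ± 1.43 on the fitted log2 scale (edgeR adjusted p = 0.0223). Adamdec1, a secreted metalloprotease of macrophages and stromal cells, had 0 counts in the fresh libraries and 818 counts with cyclopamine, at least 240-fold higher (edgeR adjusted p = 0.0184). Every cyclopamine library had reads of it, from 0.364 CPM in HPSC positive to 61.1 CPM in EC negative. Tfrc, the transferrin receptor that brings iron into dividing and erythroid cells, had 35.9, 110 and 198 CPM in fresh and 164, 284 and 825 CPM in cyclopamine libraries. Its groups overlapped through the fresh HPSC negative library, at 198 CPM, and Tfrc rose by 1.77 ± 0.29 (edgeR adjusted p = 0.0174). It was the single one of 21 tested erythroid genes to pass (median 0.58).

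**Figure D2:**
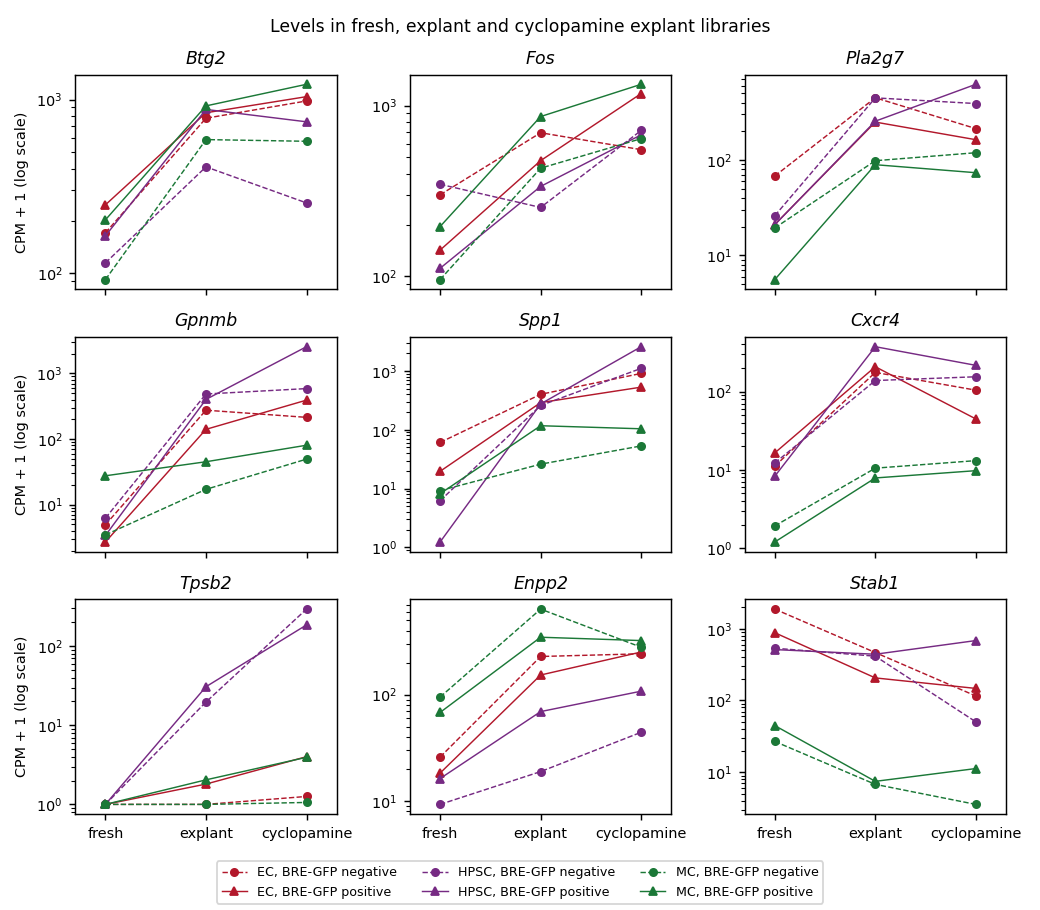
Level (CPM + 1, log axis) of 9 genes in fresh, explant and cyclopamine libraries, with 1 line for each gate and fraction (colour for the gate, dashed line with circles for BRE-GFP negative, solid line with triangles for positive). For Btg2, Fos, Pla2g7 and Gpnmb all 6 cyclopamine libraries lie above all fresh ones, and Tpsb2 is high only in the HPSC gate, at 293 and 184 CPM with cyclopamine.

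Enpp2, the secreted enzyme autotaxin that makes lysophosphatidic acid, had 8.33, 21.1 and 93.9 CPM in fresh libraries and 43.4, 246 and 321 CPM in cyclopamine libraries. The fresh MC libraries, at 93.9 and 67.1 CPM, were within the cyclopamine range, and Enpp2 was higher in each block. It rose by 2.71 ± 0.34 (edgeR adjusted p = 0.00206). Agtr2, the type 2 angiotensin receptor of fetal mesenchyme, had 0.774, 18.9 and 187 CPM in fresh and 5.28, 420 and 974 CPM in cyclopamine libraries. Both ranges were set by the gate, since the HPSC libraries were lowest in each culture and the MC libraries highest, and Agtr2 was higher with cyclopamine in every block. It rose by 3.37 ± 0.48 (edgeR adjusted p = 0.00458).

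Mgp, an extracellular inhibitor of BMP ligands and calcification, had 0.359, 7.75 and 77.1 CPM in fresh and 32.6, 164 and 374 CPM in cyclopamine libraries. The fresh MC positive library overlapped the cyclopamine HPSC libraries, and Mgp rose by 3.61 ± 0.63 (edgeR adjusted p = 0.0280). Mia1, a small secreted protein of cartilage and melanoma cells, had 0, 2.3 and 9.58 CPM in fresh and 2.37, 59.2 and 277 CPM in cyclopamine libraries. It was high in the EC and MC gates and in HPSC negative cells, and it rose by 5.29 ± 0.96 (edgeR adjusted p = 0.0341). Aspn, the small leucine-rich matrix proteoglycan asporin, was between 0.359 and 1.45 CPM in all fresh libraries and reached 180 CPM with cyclopamine (median 92.3). The HPSC negative library went against this, with 0.387 CPM fresh and 0 CPM with cyclopamine, while Aspn rose over the blocks by 5.89 ± 0.94 (edgeR adjusted p = 0.0141). Aspn shares exonic sequence with Cenpp on the opposite strand.

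Of the remaining called genes, Nfia, a transcription factor of the nuclear factor I family, rose by 1.52 ± 0.24 (edgeR adjusted p = 0.0141), from 91.8, 251 and 540 CPM to 285, 962 and 1626 CPM. Olfml3, a secreted olfactomedin-like matrix protein, rose by 1.56 ± 0.29 (edgeR adjusted p = 0.0468), from 37.0, 151 and 311 CPM to 139, 440 and 601 CPM. Ptrf, the caveola coat protein cavin-1, rose by 1.89 ± 0.35 (edgeR adjusted p = 0.0362), from 62.5, 129 and 930 CPM to 302, 718 and 1992 CPM. The fresh and cyclopamine ranges of these 3 genes overlapped, and each gene was higher with cyclopamine in all 6 blocks. Nfia, Olfml3, Ptrf, Aspn, Ctsg and Tfrc fall outside the naming rule and were named after their values were seen.

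Of 21 tested mesenchymal genes none passed, 7 were higher and 1 was lower at an unadjusted p under 0.05 (median 0.59). The median was 1.70 in the EC gate, -0.35 in HPSC and 0.36 in MC. Pdgfrb, the PDGF receptor of pericytes and mesenchyme, had 11.5, 38.3 and 187 CPM in fresh and 30.5, 298 and 563 CPM in cyclopamine libraries (difference 1.88 ± 0.39, adjusted p = 0.0896). Dcn, the collagen-binding proteoglycan decorin, was higher in all 6 blocks (difference 2.01 ± 0.50, adjusted p = 0.225). The 6 mesenchymal markers of the EC gate summed to 3552 and 3834 CPM in explants without the drug and to 3568 and 5639 CPM with it (negative, then positive), and their part in the rise of Enpp2, Mgp, Agtr2, Mia1 and Aspn was not tested. In the MC gate these markers summed to 1946 and 5263 CPM fresh and to 4092 and 5757 CPM with cyclopamine. Agtr2 went there from 91.9 and 187 CPM to 865 and 974 CPM, and Enpp2 from 93.9 and 67.1 CPM to 278 and 321 CPM.

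No gene fell past the threshold. Stab1, a scavenger receptor of sinusoidal endothelium and resident macrophages, had 25.9, 523 and 1877 CPM in fresh and 2.56, 82.0 and 683 CPM in cyclopamine libraries (difference -2.44 ± 0.51, adjusted p = 0.0978). It was lower in 5 blocks and higher in HPSC positive cells, at 511 CPM fresh and 683 CPM with cyclopamine. Rbm44, an RNA-binding protein known from germ cells, had 1.91, 4.82 and 33.1 CPM in fresh and 0, 0.0291 and 0.377 CPM in cyclopamine libraries, with no overlap (difference -6.89 ± 1.45, adjusted p = 0.0978). Marcks, an actin-binding substrate of protein kinase C, was lower in all 6 blocks, at 381, 824 and 1259 CPM in fresh and 228, 419 and 592 CPM in cyclopamine libraries (difference -0.97 ± 0.21, adjusted p = 0.121).

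Of 24 tested endothelial genes none passed and 4 were lower at an unadjusted p under 0.05, with no member higher at that level (median -0.97). By gate, the list's median was -0.992 in EC, 0.358 in HPSC and -0.655 in MC. Kdr, the VEGF receptor, differed by -1.50 (adjusted p = 0.615) and Vwf, the platelet-binding factor stored in endothelium, by -1.43 ± 0.55 (adjusted p = 0.574). Of 12 venous and lymphatic genes 4 were lower at that level and none higher (median -0.22). Aplnr, the apelin receptor of venous and sprouting endothelium, was lower in each of the 6 blocks, with 3.39, 65.6 and 2764 CPM in fresh and 0, 11.7 and 87.7 CPM in cyclopamine libraries (difference -4.37 ± 1.05, adjusted p = 0.2004). In drug-free explants Aplnr ran from 2.923 to 124.4 CPM. Pecam1, the CD31 antigen of the sort, differed by 0.35 ± 0.41 (adjusted p = 0.921). Beside these values, the endothelial marker sum of the EC positive fraction was 8138 CPM fresh and 1584 CPM with cyclopamine, and that of the EC negative fraction 498 and 1232 CPM.

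Globin genes had none of 6 past the threshold and 2 lower at an unadjusted p under 0.05 (median -1.75). In the EC gate their summed level was 3379 and 1756 CPM in fresh libraries and 7.15 and 12.3 CPM in cyclopamine libraries (negative, then positive). In the HPSC gate it was 15000 and 1833 CPM fresh and 10780 and 6664 CPM with cyclopamine, and in the MC gate 27100 and 496 CPM fresh and 2346 and 2628 CPM with cyclopamine. The sum was therefore lower in 4 blocks and higher in HPSC positive and MC positive cells, and the list's median was 0.018 within the HPSC gate. Hbb-bh1, a globin of primitive red cells, differed by -4.50 over all blocks (adjusted p = 0.467). Lymphoid genes had 2 of 13 lower at an unadjusted p under 0.05, and none passed or was higher at that level (median -2.05). Cell cycle genes had 3 of 25 lower and none higher (median -0.37), and ribosomal protein genes 0 of 25 in either direction (median 0.01).

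The target of cyclopamine lies in the Hedgehog pathway, and no gene of that pathway passed. Gli1, the transcription factor most used as a readout of active Hedgehog signalling, had 0.440, 7.92 and 41.1 CPM in fresh and 0, 5.59 and 25.4 CPM in cyclopamine libraries. In the MC gate it went from 36.0 and 41.1 CPM to 25.4 and 19.5 CPM, in the HPSC gate from 12.8 and 0.718 CPM to 0 and 0.182 CPM, and in EC negative cells from 3.06 to 1.56 CPM. Gli1 was thus lower in 5 of 6 blocks, and EC positive cells went the other way, from 0.440 to 9.63 CPM. The difference over all blocks was -1.02 ± 1.14 (adjusted p = 0.916). Gli1 shares exonic sequence with Arhgap9 on the opposite strand.

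Ptch1, the Hedgehog receptor and a target, had 4.19, 16.4 and 50.9 CPM in fresh and 6.47, 18.5 and 31.2 CPM in cyclopamine libraries (difference -0.07 ± 0.67, adjusted p = 0.993). Hhip, a membrane protein that binds the ligands, had 0, 3.23 and 30.4 CPM in fresh and 0, 2.69 and 14.5 CPM with cyclopamine (difference -0.84 ± 1.39, adjusted p = 0.951). Smo, the protein that the drug binds, differed by -0.32 ± 0.93 (adjusted p = 0.976), and in the HPSC gate it went from 9.20 and 50.6 CPM to 0 and 1.37 CPM. The standard errors of these 4 genes were 0.67 to 1.39 on the log2 scale, and a call needed a difference several times its standard error. Stab1, for example, did not pass at -2.44 ± 0.51 (edgeR adjusted p = 0.0978). Differences well above the standard errors of these 4 genes could therefore have been missed. The lack of a call does not show that they were unchanged.

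Of 15 tested Hedgehog targets, 0 were higher and 2 were lower at an unadjusted p under 0.05 (median -0.000605). The lower ones were Foxf2, a forkhead factor of gut and vessel mesenchyme, at -4.46 ± 1.46 (adjusted p = 0.502), and Ccnd1, the G1 cyclin D1, at -1.43 ± 0.60 (adjusted p = 0.628). Ccnd1 was lower in all 6 blocks, with 16.4, 73.8 and 155 CPM in fresh and 0, 43.2 and 48.5 CPM in cyclopamine libraries. Drug-free explants were also low in Ccnd1, at 11.52 to 58.41 CPM. Foxf2 ran from 0.07942 to 23.45 CPM in drug-free explants and from 0 to 8.158 CPM with cyclopamine. Of 17 tested pathway components none passed and 1, the Hedgehog acyltransferase Hhat, was lower at an unadjusted p under 0.05 (median -0.32).

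Explants without the drug were also cultured rather than fresh. Gli1 had 0.934, 17.3 and 33.1 CPM in them, Ptch1 11.6, 27.3 and 62.9 CPM, and Hhip 0, 23.9 and 79.1 CPM. Cyclopamine minus drug-free explants was -1.39 ± 1.09 for Gli1 (adjusted p = 0.925), -0.57 ± 0.65 for Ptch1 (adjusted p = 0.987) and -3.30 ± 1.44 for Hhip (adjusted p = 0.551), whose unadjusted p was 0.0352. The median of the 15 Hedgehog targets in that contrast was -0.62. Lists outside the pathway reached similar medians there, at -0.549 for BMP targets and -0.696 for interferon response genes, while immediate early genes had 0.194. No gene of any kind passed between the explant cultures (0% called, edgeR), and 1319 genes, 8.13%, had an unadjusted p under 0.05.

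BMP targets had 0 of 19 past the threshold, while 1 was higher and 2 were lower at an unadjusted p under 0.05 (median -0.62). Id1, a helix-loop-helix inhibitor that BMP induces, had 2.15, 22.1 and 73.1 CPM in fresh and 14.5, 45.6 and 60.6 CPM in cyclopamine libraries (difference 0.47 ± 0.52, adjusted p = 0.914). Id3, a second such inhibitor, had 150, 375 and 1020 CPM in fresh and 239, 384 and 695 CPM in cyclopamine libraries (difference -0.02 ± 0.32, adjusted p = 0.995). Smad6, an inhibitory SMAD, differed by -1.26 ± 1.05 (adjusted p = 0.877). The lower targets were Hand1, a factor of lateral mesoderm, at -4.67 (adjusted p = 0.601), and Msx1, a homeobox factor, at -3.28 (adjusted p = 0.582).

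Of 19 tested components of the BMP pathway none passed, while 2 were higher and 2 were lower at an unadjusted p under 0.05 (median 0.13). Bmp4, the ligand made beneath the dorsal aorta, was lower in all 6 blocks, with 7.16, 41.6 and 97.0 CPM in fresh and 0.754, 10.6 and 47.3 CPM in cyclopamine libraries (difference -2.09 ± 0.66, adjusted p = 0.461). Acvrl1, the endothelial receptor ALK1, differed by -2.10 (adjusted p = 0.615). The higher components were Bmper, a secreted regulator of the ligands, at 2.17 ± 0.83 (adjusted p = 0.574), and Bmpr1a, a type I receptor, at 1.31 (adjusted p = 0.614).

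**Figure D3:**
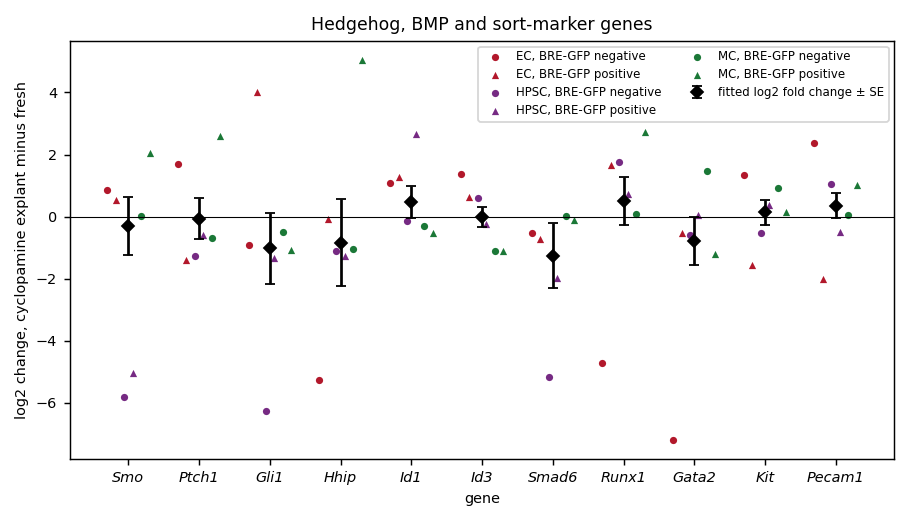
Difference between cyclopamine explant and fresh libraries (y axis, log2) for 11 genes of Hedgehog signalling, BMP signalling and cell identity (x axis), with diamonds for the fitted value ± SE and points for the 6 blocks. All adjusted p-values are 0.877 or higher, and the points of Gli1 and Hhip lie on both sides of 0.

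Among transcription factors of hematopoiesis, none of 22 passed and 1 was higher at an unadjusted p under 0.05 (median -0.21). Runx1, required for the emergence of stem cells from endothelium, had 1.60, 23.1 and 96.3 CPM in fresh and 3.51, 24.9 and 172 CPM in cyclopamine libraries (difference 0.49 ± 0.77, adjusted p = 0.945). Gata2, which acts at the same step, had 22.8, 47.8 and 78.3 CPM in fresh and 0, 40.5 and 62.9 CPM in cyclopamine libraries (difference -0.80 ± 0.77, adjusted p = 0.899).

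Several further lists had members at an unadjusted p under 0.05 on the higher side only, with none passing. Of 23 cholesterol synthesis genes 3 were higher (median 0.46), among them Lss, lanosterol synthase, with 16.6, 34.5 and 99.8 CPM in fresh and 56.3, 180 and 256 CPM in cyclopamine libraries (difference 1.84 ± 0.38, adjusted p = 0.0978). Of 24 interferon response genes 4 were higher (median 1.06), such as the 2-5A synthetase-like gene Oasl2 at 2.01 (adjusted p = 0.502) and Bst2, the antiviral protein tetherin, at 1.58 (adjusted p = 0.525). Of 14 genes of the insulin-like growth factor axis 5 were higher (median 0.87), Igfbp5, a binding protein of the matrix, differing by 1.47 (adjusted p = 0.456). Of 24 genes of the unfolded protein response 3 were higher (median 0.58), such as Ddit3, the stress factor CHOP, at 1.23 (adjusted p = 0.547). Other lists had members on both sides: 5 of 24 Wnt pathway genes were higher and 1 lower (median 0.63), and 4 of 15 retinoic acid genes were higher and 1 lower (median -0.01). Over all genes, 3.82% were higher and 3.39% were lower by the same criterion.

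**Figure D4:**
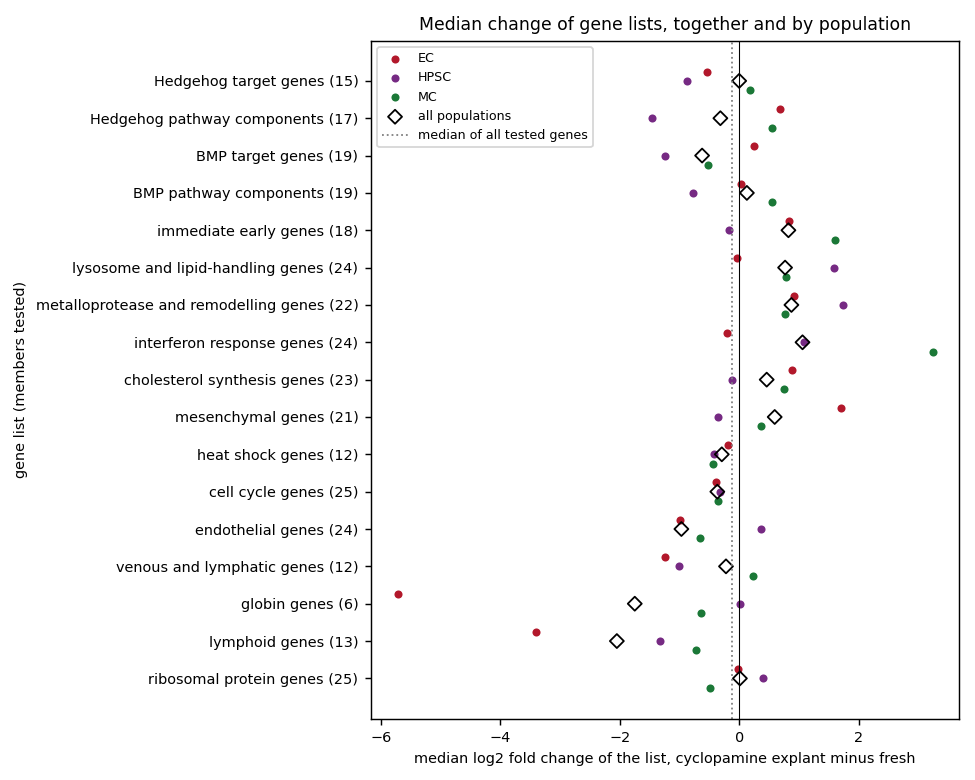
Median log2 difference (x axis, cyclopamine explant minus fresh) of 17 gene lists (y axis), as open diamonds over all blocks and coloured dots within each gate, with the median of all tested genes as a dotted line. Interferon and immediate early genes lie to the right of the dotted line, at 1.06 and 0.82, and lymphoid and globin genes to its left, at -2.05 and -1.75, with wide spread between gates.

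Within the EC gate 5 genes rose and none fell (0.0308% called, 0% lower, 949 genes or 5.85% at an unadjusted p under 0.05, DESeq2 507). They were Lrrc17, Gpnmb, Itm2a, Ncam1 and Enpp2. Itm2a, a membrane protein of chondrogenic and myogenic cells, went from 412 and 432 CPM to 2491 and 4454 CPM (negative, then positive fraction), a rise of 2.96 ± 0.43 (edgeR adjusted p = 0.0351). Ncam1, a neural and mesenchymal adhesion molecule, went from 239 and 213 CPM to 1219 and 1246 CPM, a rise of 2.45 ± 0.35 (edgeR adjusted p = 0.0351). Drug-free EC explants had 1871 and 3442 CPM of Itm2a and 797.5 and 813.8 CPM of Ncam1. Gpnmb rose by 6.89 ± 0.98 (edgeR adjusted p = 0.0351) and Enpp2 by 3.57 ± 0.54 (edgeR adjusted p = 0.0404). Beside these 5 genes stand the 6 mesenchymal markers of this gate, at 733 and 1183 CPM fresh and 3568 and 5639 CPM with cyclopamine, whose part was not tested. Among lower genes, the embryonic globins Hbb-y and Hba-x differed by -8.17 (adjusted p = 0.101) and -7.80 (adjusted p = 0.128), and Mogat2, an enzyme of triglyceride synthesis, went from 14.2 and 130 CPM to 0 and 0 CPM (adjusted p = 0.105). The EC count was 229 without the EC cyclopamine positive library, 0 without the fresh EC negative, fresh EC positive or EC cyclopamine negative library, 1 without either drug-free EC library and 2 without the fresh MC negative library. It was 14 without either fresh HPSC library, 8 without the HPSC cyclopamine negative library, and 9 without either drug-free HPSC library or the MC cyclopamine positive library.

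Within the HPSC gate 3 genes rose and 1 fell (0.0246% called, 0.0185% higher, 0.00616% lower, 1130 genes or 6.96% at an unadjusted p under 0.05, DESeq2 749). Spp1 went from 5.23 and 0.239 CPM to 1102 and 2573 CPM, a rise of 9.62 ± 1.22 (edgeR adjusted p = 0.0162), and Gpnmb from 5.23 and 2.39 CPM to 586 and 2556 CPM, a rise of 8.56 ± 1.06 (edgeR adjusted p = 0.0162). Pla2g7 went from 25.1 and 19.97 CPM to 389 and 620 CPM, a rise of 4.51 ± 0.65 (edgeR adjusted p = 0.0311). Lrrc17 fell by 3.76 ± 0.52 on the log2 scale (edgeR adjusted p = 0.0286). Beside the 3 that rose, the 5 macrophage markers of the HPSC gate summed to 1307 and 358 CPM fresh and 1206 and 2546 CPM with cyclopamine, and their part was not tested. Of the lower genes that did not pass, Sema3a, a repulsive guidance ligand, went from 36.2 and 67.1 CPM to 0.754 and 1.64 CPM (difference -5.38 ± 1.002, adjusted p = 0.194). Dnajb4, an HSP40 co-chaperone, differed by -8.93 ± 1.55 (adjusted p = 0.149) and Eri2, an exonuclease, by -6.10 ± 1.10 (adjusted p = 0.182). The HPSC count was 726 without the HPSC cyclopamine positive library, 1 without the fresh HPSC negative library and 0 without the fresh HPSC positive library, where Spp1 had an adjusted p of 0.0692 and the other 3 genes 0.296 or higher.

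Within the MC gate edgeR called no gene (0% called, 285 genes or 1.76% at an unadjusted p under 0.05, DESeq2 28). Btg2 had the values 90.8 and 202 CPM fresh and 574 and 1223 CPM with cyclopamine (adjusted p = 0.245), and Pla2g7 18.4 and 4.59 CPM fresh and 118 and 72.6 CPM with cyclopamine (adjusted p = 0.513). Aspn had 1.23 and 0.599 CPM fresh and 95.6 and 170 CPM with cyclopamine (adjusted p = 0.513). On the lower side, Hmga2, a chromatin protein of embryonic growth, had 518 and 566 CPM fresh and 172 and 98.9 CPM with cyclopamine (difference -2.07 ± 0.47, adjusted p = 0.907). Tpm1, a tropomyosin of contractile filaments, differed by -1.43 ± 0.36 (adjusted p = 1) and Mogat2 by -5.37 ± 1.44 (adjusted p = 1).

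The size of the difference between cultures itself differed between the gates for 1 gene, Lrrc17 (0.00616% called, edgeR adjusted p = 0.00177, 657 genes or 4.05% at an unadjusted p under 0.05, DESeq2 177). Lrrc17 encodes a secreted leucine-rich repeat protein known as an inhibitor of osteoclast formation. It had 17.3 and 17.9 CPM in fresh EC libraries and 357 and 353 CPM in EC cyclopamine libraries, a rise of 4.33 ± 0.51 (edgeR adjusted p = 0.0127). In the MC gate it had 73.4 and 76.1 CPM fresh and 350 and 446 CPM with cyclopamine (difference 2.40 ± 0.46, adjusted p = 0.513). The HPSC gate went the other way, from 23.0 and 40.4 CPM to 2.26 and 2.37 CPM. In drug-free explants Lrrc17 had 282 and 248 CPM in EC, 371 and 533 CPM in MC, and 18.8 and 17.4 CPM in HPSC libraries. Sema3a, Capn6, a calpain-like protein of embryonic mesenchyme and muscle, and Pknox2, a homeobox factor, were next by p for a difference between gates and did not pass (adjusted p = 0.698 each). Capn6 had 60.1 and 20.6 CPM in fresh and 655 and 999 CPM in cyclopamine EC libraries, and 106 and 10.5 CPM in fresh and 9.05 and 8.29 CPM in cyclopamine HPSC libraries. The 6 mesenchymal markers of the HPSC gate summed to 647 and 331 CPM fresh and 400 and 650 CPM with cyclopamine. For Lrrc17 the difference between gates passed in all 18 fits that leave out 1 library, with a highest adjusted p of 0.0373 without the HPSC cyclopamine positive library, where 54 genes passed. Without either drug-free EC library or the fresh MC negative library 2 genes passed. Lrrc17 lies at chr5:21543559-21575904 on the plus strand (GRCm38) and shares exonic sequence with Fbxl13 on the opposite strand, which had 0 to 4.84 CPM in fresh and 0 to 4.74 CPM in cyclopamine libraries.

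**Figure D5:**
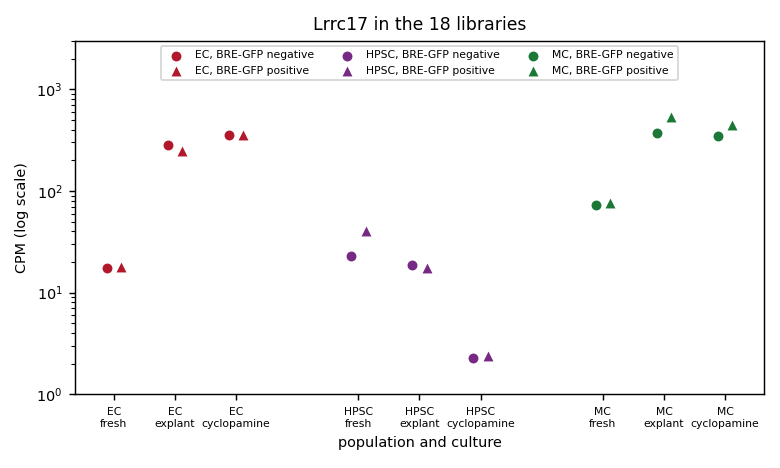
Lrrc17 level (CPM, log axis) in all 18 libraries by gate and culture, with the BRE-GFP fractions as separate symbols. Cyclopamine libraries lie between 350 and 446 CPM in the EC and MC gates and at 2.26 and 2.37 CPM in the HPSC gate.

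Split by reporter, the 3 BRE-GFP positive pairs gave 6 genes that rose and 1 that fell (0.0431% called, 0.037% higher, 0.00616% lower, 917 genes or 5.65% at an unadjusted p under 0.05, DESeq2 491). Pcdh9, a protocadherin of cell adhesion, had 0.189, 0 and 0 CPM fresh and 63.4, 35.3 and 158 CPM with cyclopamine (EC, HPSC and MC in that order), a rise of 9.65 ± 1.24 (edgeR adjusted p = 0.0127). Sdc4, the heparan sulfate proteoglycan syndecan-4, went from 83.8, 57.8 and 64.1 CPM to 416, 497 and 211 CPM, a rise of 2.43 ± 0.40 (edgeR adjusted p = 0.0469). Both genes were higher with cyclopamine in each of these 3 pairs. In HPSC negative cells Sdc4 had 176.2 CPM fresh and 162.8 CPM with cyclopamine, and Pcdh9 3.776 and 61.44 CPM. Among the positive pairs, Pla2g7 rose by 4.04 ± 0.54 (edgeR adjusted p = 0.0127), Btg2 by 2.29 ± 0.33 (edgeR adjusted p = 0.0198) and Fos by 2.82 ± 0.44 (edgeR adjusted p = 0.0294), and Tpsb2 passed as well (edgeR adjusted p = 0.0294). On the lower side, Gpatch4, a G-patch protein, Tmem88, a membrane protein that dampens Wnt signalling, and Elk3, an ETS factor of endothelium, differed by -2.28, -2.91 and -1.73 and did not pass (adjusted p = 0.162, 0.207 and 0.273).

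Prg2, the major basic protein of eosinophil granules, had 112, 153 and 2.40 CPM in the fresh positive libraries and 0.527, 0 and 0.0904 CPM with cyclopamine. It fell by 8.34 ± 1.14 on the log2 scale (edgeR adjusted p = 0.0127). In the BRE-GFP negative fraction Prg2 had 1657, 492 and 0.555 CPM fresh and 522, 469 and 0.175 CPM with cyclopamine. The 3 negative pairs gave no call (0% called, 927 genes or 5.71% at an unadjusted p under 0.05, DESeq2 700), with Stab1 at -3.62 ± 0.56 and Btg2 at 2.13 ± 0.34, each at an adjusted p of 0.101. The CSF1 receptor Csf1r of macrophages and the endocytic adaptor Dab2 differed by -3.25 and -2.14 there (adjusted p = 0.183 each), and Gpihbp1, which anchors lipoprotein lipase in capillaries, by 6.62 (adjusted p = 0.159). Ctsg also missed the threshold in this fraction (adjusted p = 0.159). The difference between the fractions itself passed for no gene (0% called, edgeR, 808 genes or 4.98% at an unadjusted p under 0.05, DESeq2 339), so no call is shown to be particular to the positive fraction. For Prg2 the adjusted p of that difference was 0.863, for Pcdh9 0.874 and for Col4a1, a basement membrane collagen, 0.874. The count in the positive fraction was 0 without the fresh or the cyclopamine HPSC positive library, 1 without the fresh and 3 without the cyclopamine MC positive library, and 4 without the EC cyclopamine positive library or any of 4 drug-free libraries (EC positive, HPSC positive and both MC), against 11 without the fresh HPSC negative and 13 without the EC cyclopamine negative library. Without the MC cyclopamine negative library 522 genes passed in the negative fraction and 208 for the difference between fractions, and the negative count was 2 without the fresh HPSC positive and 1 without the HPSC cyclopamine negative library.

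The contrast of drug-free explants with fresh tissue shares its controls with the cyclopamine contrast, and for each of the 21 called genes the ranges of the explant cultures overlapped. Explants differed from fresh tissue in 22 genes (0.136% called, edgeR). Btg2 had 408, 809 and 918 CPM in drug-free explants, and its rise over fresh tissue was 2.17 there (edgeR adjusted p = 0.00054) beside 2.21 with cyclopamine. Cxcr4 had 6.88, 156 and 373 CPM and a rise of 4.09 (edgeR adjusted p = 0.000656), and Pla2g7 88.3, 251 and 448 CPM and a rise of 3.41 (edgeR adjusted p = 0.000656). Enpp2 had 17.9, 190 and 635 CPM and a rise of 2.46 (edgeR adjusted p = 0.00618). Of the 21 called genes, 14 also passed between drug-free explants and fresh tissue, and Egr1, Fos, Gpnmb, Olfml3, Spp1, Tfrc and Tnfsf13b did not.

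Some genes had higher medians with cyclopamine than without it, without passing the direct test. The explant cultures also differed in their share of reads outside genes and in genes with reads, and the part of this was not tested. Fos had 252, 452 and 863 CPM in drug-free explants, where it did not pass against fresh tissue (difference 1.38, adjusted p = 0.166). Spp1 had 25.02, 265 and 398 CPM and Gpnmb 16.1, 207 and 485 CPM, with the top cyclopamine values of 2573 and 2556 CPM both in the HPSC positive library. Tpsb2, which passed against fresh tissue in drug-free explants too (edgeR adjusted p = 0.0143), had 18.7 and 29.7 CPM in their HPSC libraries beside 293 and 184 CPM with cyclopamine. Adamdec1 lay the other way, with 13.4, 16.2 and 135 CPM in drug-free explants and a median of 4.63 CPM with cyclopamine. None of these differences between the explant cultures passed (edgeR, 0 genes called).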

How the data were processed

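Libraries were made from mirVana RNA by SMARTER amplification, per the labels' protocols. The authors deposited raw read counts per gene symbol, and TopHat, Cufflinks, HTSeq and mm10 are named per the submitters' processing notes; of versions, annotation and strand use, nothing is stated in the sources used here. Rows that name no gene stayed out of library sizes. Among reads counted to a gene, to no annotated feature or as ambiguous, those at no feature made up 19.51% to 49.41% over the 18 libraries. Of 21881 symbols, 16231 that reached 0.796 CPM in 3 libraries (10 counts in a library of median size) were tested with edgeR 4.0.16 (R 4.3.3), TMM scaling and quasi-likelihood F tests, blocked by gate and fraction over 18 libraries (10 residual degrees of freedom, 6 within gates and 8 within fractions, common biological coefficient of variation 0.922). P-values were adjusted by Benjamini-Hochberg over all genes. SE is the log2 fold change divided by the root of F. The tests were also run on simulated counts, whose spread was set below that of these data, so that check does not cover the noise seen here. Named genes were the called genes of largest log2 fold change with the same direction in all 6 blocks and a mean of at least 10 CPM (up to 15 each way, 6 within gates and fractions; where under 3 passed, the 3 of lowest p), beside the 11 genes of the Hedgehog and BMP plot and members of 46 lists; 900 of 903 list symbols matched. Members and lists were chosen with earlier results of these data known. Alternatives used limma 3.58.1 and DESeq2 1.42.0, other scaling, filters and designs, and left out libraries.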

Additional observations from a re-analysis of the deposited data

Results flagged for a closer look

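Lrrc17 drew attention because the difference between cyclopamine explants and fresh tissue was itself different between the 3 gates, by a test of that difference (edgeR adjusted p = 0.00177, the single gene of 16231 to pass). It went up in both EC libraries, from 17.3 and 17.9 CPM to 357 and 353 CPM, and down in both HPSC libraries, from 23.0 and 40.4 CPM to 2.26 and 2.37 CPM. The test was run over all genes, and DESeq2 passed 177 genes in the same comparison, Lrrc17 among them (adjusted p = 1.9e-27).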

How the results depend on the processing

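With 1 library for each gate, fraction and culture, the counts depended on the processing more than the directions did; the cause was not tested. Over 735 values of the 21 genes that rose, 431 stayed on the same side of the threshold, 304 fell short of it and 0 changed sign. DESeq2 size factors left 21 genes higher. limma-voom called 37 higher and 15 lower (71.2% higher), DESeq2 230 and 155 (59.7% higher). Fits to the 12 libraries alone, without the replicate block (culture alone) and with the share of reads outside genes as covariate gave 2, 1 and 0 higher. With additive gate and fraction terms in place of the replicate block 16 were higher, 15 of them among the 21. Leaving out 1 library gave 9 to 25 higher and 0 to 1 lower. Leaving out a block gave 8 (EC negative), 7 (EC positive), 26 (HPSC negative), 11 with 1 lower (HPSC positive), 6 (MC negative) and 9 (MC positive). Leaving out a gate gave 3 (EC), 17 with 1 lower (HPSC) and 3 (MC). No filter and DESeq2 gave 44 and 507 calls within EC, 26 and 749 within HPSC, 3 and 28 within MC, 14 and 700 in BRE-GFP negative cells, 24 and 491 in positive cells, 13 and 177 for the difference between gates, and DESeq2 339 for that between fractions. Without 1 library these counts ran from 0 to 229, 0 to 726, 0 to 0, 0 to 522 (without the MC cyclopamine negative library), 0 to 13, 1 to 54 (without the HPSC cyclopamine positive library) and 0 to 208 (without the MC cyclopamine negative library). Labels number every library 1, so the block is the gate and fraction.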

Other observations

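Some gene groups stand outside the comparisons above. None of 15 germ cell genes passed and 3 were higher at an unadjusted p under 0.05, none lower (median 0.51, against 3.82% of all genes higher at that level). Dazl, an RNA-binding protein of primordial germ cells, had 0, 0.261 and 52.5 CPM in fresh libraries (lowest, median and highest) and 0.136, 26.3 and 272 CPM in cyclopamine libraries (difference 3.93 ± 1.03, edgeR adjusted p = 0.280). Ddx4, the germ cell helicase, had 0, 1.49 and 54.2 CPM in fresh and 0.0583, 23.5 and 136 CPM in cyclopamine libraries (difference 2.40 ± 1.04, adjusted p = 0.637). The 3 defining germ cell markers summed to 220 and 0 CPM in the fresh HPSC libraries and to 480 and 107 CPM in the cyclopamine HPSC libraries (negative, then positive), a gate that selects c-Kit, which germ cells also carry. Drug-free HPSC explants had 723 and 43.9 CPM of them. In the EC gate, sorted as c-Kit negative, these markers summed to 71.3 and 3.39 CPM fresh and to 213 and 31.5 CPM with cyclopamine. The MC gate had 1.725 and 0.599 CPM fresh and 1.11 and 1.40 CPM with cyclopamine.

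Of 16 smooth muscle genes none passed, 1 was higher and 3 were lower at an unadjusted p under 0.05 (median -0.35, and -1.31 within the MC gate). Cnn1, the contractile protein calponin, had 0, 4.19 and 81.5 CPM in fresh and 0, 0.338 and 6.78 CPM in cyclopamine libraries (difference -3.27 ± 1.11, adjusted p = 0.516). Cspg4, the pericyte proteoglycan NG2, lay the other way at 2.13 ± 0.79 (adjusted p = 0.557). Of 18 Notch pathway genes none passed, 2 were higher and 1 was lower at that level (median 0.46). The higher ones were the receptor Notch2, at 0.89 ± 0.38 (adjusted p = 0.637), and the arterial ligand Dll4, at 2.07 ± 0.93 (adjusted p = 0.657), and the lower one was the glycosyltransferase Mfng, at -1.99 ± 0.73 (adjusted p = 0.543). Of 17 p53 targets, Btg2 rose and 4 in all were higher at that level (median 0.18), among them the cell cycle inhibitor Cdkn1a, at 1.26 ± 0.49 (adjusted p = 0.579).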
